A study of Mus musculus with 4 samples.

Results

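TGF-beta and activin are secreted dimers of one superfamily. Both act through pairs of type II and type I receptor kinases, which phosphorylate SMAD2 and SMAD3, and these then enter the nucleus with SMAD4 and regulate target genes. TGF-beta is secreted in a latent complex and must be released before it binds, activin is captured by follistatin, and the co-receptor betaglycan hands TGF-beta 2 to the signalling receptors. In bone marrow stroma these ligands are known for promoting matrix production by osteoblast precursors and for restraining adipocyte differentiation.

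The 10 genes described here are the TGF-beta ligand genes Tgfb1, Tgfb2 and Tgfb3, the activin subunit genes Inhba and Inhbb, the follistatin gene Fst, the type I receptor genes Tgfbr1 and Acvr1c, the type II receptor gene Tgfbr2 and the betaglycan gene Tgfbr3. They were chosen by symbol and not by their values, though with earlier results of these data known. Each had 1 row in a table of 47069 mouse gene identifiers. Their transcripts were measured by RNA sequencing in mBMSCs, the adherent cells grown at passage P1 from the tibial and femoral marrow of wild type C57BL/6J mice aged 8 weeks. Confluent cultures received 50 µM GA with 1 µM dexamethasone (DEX) or the same volume of DMSO with 1 µM DEX for 3 days, and each group has 2 libraries. GA is ginkgolic acid, an inhibitor of sumoylation that, per the paper, has also been reported to block histone acetyltransferase. Dexamethasone, a synthetic glucocorticoid, was present in both groups. The comparison is therefore of GA against its vehicle in cells that all carried DEX. The sources used here give no separate mouse or culture for a library, so p-values reflect only the spread between libraries, which may be technical.

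The deposited values are FPKM, the fragments of a gene per kilobase of its length and scaled to the reads counted in the library, which rested on 21559951 to 31069538 reads per library. The 12174 genes whose FPKM averaged at least 1 over the libraries, these 10 included, were compared with limma on log2(FPKM + 1), two-sided, and called at an adjusted p under 0.05 (Benjamini-Hochberg over all genes tested). FPKM is a share of a library, and over all genes tested the log2 fold change had a median of 0.19. The comparison was therefore repeated after the log values of each library were shifted to a common median, which left the median gene at -0.04 and lowered every log2 fold change by a constant. As deposited, 46.3% of genes tested were called higher and 11.9% lower, and after the shift 19.5% were called higher and 27.9% lower.

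The culture was not of 1 cell type by its markers. All 6 osteoblast markers tested were expressed and lower in GA plus DEX, and all 6 adipocyte markers were higher, with a summed level of 33.4 to 34.0 FPKM in DMSO plus DEX and 4061 to 4722 in GA plus DEX. Of the stromal markers, Lepr and Cxcl12 were higher, Pdgfrb and Col1a1 were lower, Pdgfra was higher only as deposited, and Thy1 stayed under the minimum. Macrophage markers were abundant, with a summed level of 3646 to 3894 FPKM in DMSO plus DEX and 4572 to 5305 in GA plus DEX, and 11 of 12 were called higher (7 after the shift). All 7 osteoclast markers tested were higher, summing to 289 to 304 FPKM and 871 to 933 FPKM in that order. Of the markers counted as higher, Calcr, Oscar, Dcstamp, Plin1 and Cidec averaged under 1 FPKM in DMSO plus DEX, so they entered the test only through the GA libraries and had to differ. The T cell, B cell and neutrophil lists each summed to under 4 FPKM in every library, with Cd8a, Ms4a1 and Ly6g at 0. In such bulk samples a smaller number of cells of a type and less RNA in each cell cannot be told apart.

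The ligand genes with the largest falls were Inhbb, Inhba and Tgfb2, and Acvr1c had the largest rise. Their promoters are printed to show the sequence upstream of the start sites of these 4 genes. The bases lie upstream of the RefSeq start (position -250 is the first base, and the base before the start is -1) in build GRCm38.p6, and are given 5′ to 3′ on the strand of the gene. They are chr1:119422249-119422498 (minus strand) for Inhbb, chr13:16011601-16011850 (plus) for Inhba, chr1:186705990-186706239 (minus) for Tgfb2 and chr2:58357896-58358008 (minus) for Acvr1c, where the stretch stops at position -138 because GENCODE release M21 has a transcript of the gene starting there. Acvr1c had 2 RefSeq promoter entries, and that nearest the outer start of the gene was used. Capitals mark matches to the motifs searched.
Inhbb: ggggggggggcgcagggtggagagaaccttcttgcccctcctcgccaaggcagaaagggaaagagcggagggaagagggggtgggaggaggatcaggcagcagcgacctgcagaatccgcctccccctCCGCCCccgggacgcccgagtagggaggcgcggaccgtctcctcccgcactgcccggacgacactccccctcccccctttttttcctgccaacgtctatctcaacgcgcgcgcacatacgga
Inhba: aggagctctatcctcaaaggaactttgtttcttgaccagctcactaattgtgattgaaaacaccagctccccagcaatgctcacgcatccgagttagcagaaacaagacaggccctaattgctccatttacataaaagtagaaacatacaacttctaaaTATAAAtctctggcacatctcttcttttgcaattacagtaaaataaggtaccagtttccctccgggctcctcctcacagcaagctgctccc
Tgfb2: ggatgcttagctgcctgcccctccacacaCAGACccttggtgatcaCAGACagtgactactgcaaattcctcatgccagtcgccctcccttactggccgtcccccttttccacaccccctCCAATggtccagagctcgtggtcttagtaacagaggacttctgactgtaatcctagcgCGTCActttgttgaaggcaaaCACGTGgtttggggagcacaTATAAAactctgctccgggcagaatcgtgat
Acvr1c: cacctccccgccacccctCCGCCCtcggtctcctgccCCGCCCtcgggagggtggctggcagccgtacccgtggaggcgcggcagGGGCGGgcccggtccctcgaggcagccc

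Motifs were searched on both strands of the 250 bases before the start, and none of them contains another. Inhba held 1 TATA box (TATAAA) at position -91, and Tgfb2 held 1 at -31, a motif found in 12.4% of the 32851 promoter windows of the RefSeq table. The Tgfb2 window also held 1 CCAAT box (CCAAT, 33.8% of all windows) and 1 E-box (CACGTG, 6.02%). It further held 1 half-site of the cAMP response element (TGACG, 17.8%) and 2 SMAD boxes (CAGAC, 42.2%). Inhbb had 1 GC box (GGGCGG, 32.7%) and Acvr1c had 3. GC content was taken over the 250 bases, which for Acvr1c include bases not printed. It ran from 43.2% in Inhba through 53.6% in Tgfb2 and 68% in Inhbb to 79.6% in Acvr1c, against a median of 52.4% over all windows. Promoters of Tgfb1, Tgfbr1 and Tgfbr2 were searched as well, which makes 7 of the 10 genes. No window of these 7 held the AP-1 site (TGACTCA, 4.46%) or the C/EBP palindrome (TTGCGCAA, 0.164%). A match describes the letters only, and the lack of one says nothing of whether a factor binds.

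Transcripts of all 3 TGF-beta ligands were lower in GA plus DEX, Tgfb2 the most and Tgfb1 the least. Tgfb1 was at 172 and 175 FPKM in DMSO plus DEX and at 139.6 and 152 FPKM in GA plus DEX. These were the highest FPKM of the 10 genes in both groups, a rank that depends on the gene lengths used. In recovered reads of the first DMSO library, Tgfb1 had 6616 against 7484 for Tgfb2. Both GA libraries were below both DMSO libraries, by a small margin next to the level. The log2 fold change was -0.25 (SE 0.06, adjusted p = 0.0105 with limma), and without the second DMSO library the adjusted p was 0.0613, which ends the call.

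Tgfb2, the ligand that depends most on betaglycan for binding, was at 132 and 141 FPKM in DMSO plus DEX and at 75.1 and 84.0 FPKM in GA plus DEX. The groups were far apart relative to the spread inside each. Its mean fell 1.71-fold, with a log2 fold change of -0.77 (SE 0.07, adjusted p = 8.90e-05). Tgfb3, the third isoform, was at 40.5 and 40.8 FPKM against 27.7 and 29.0 FPKM, again without overlap. It fell 1.43-fold, with a log2 fold change of -0.51 (SE 0.05, adjusted p = 0.000217). With libraries shifted to 1 median the 3 ligands had log2 fold changes of -0.48, -1.003 and -0.74 for Tgfb1, Tgfb2 and Tgfb3.

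**Figure D1:**
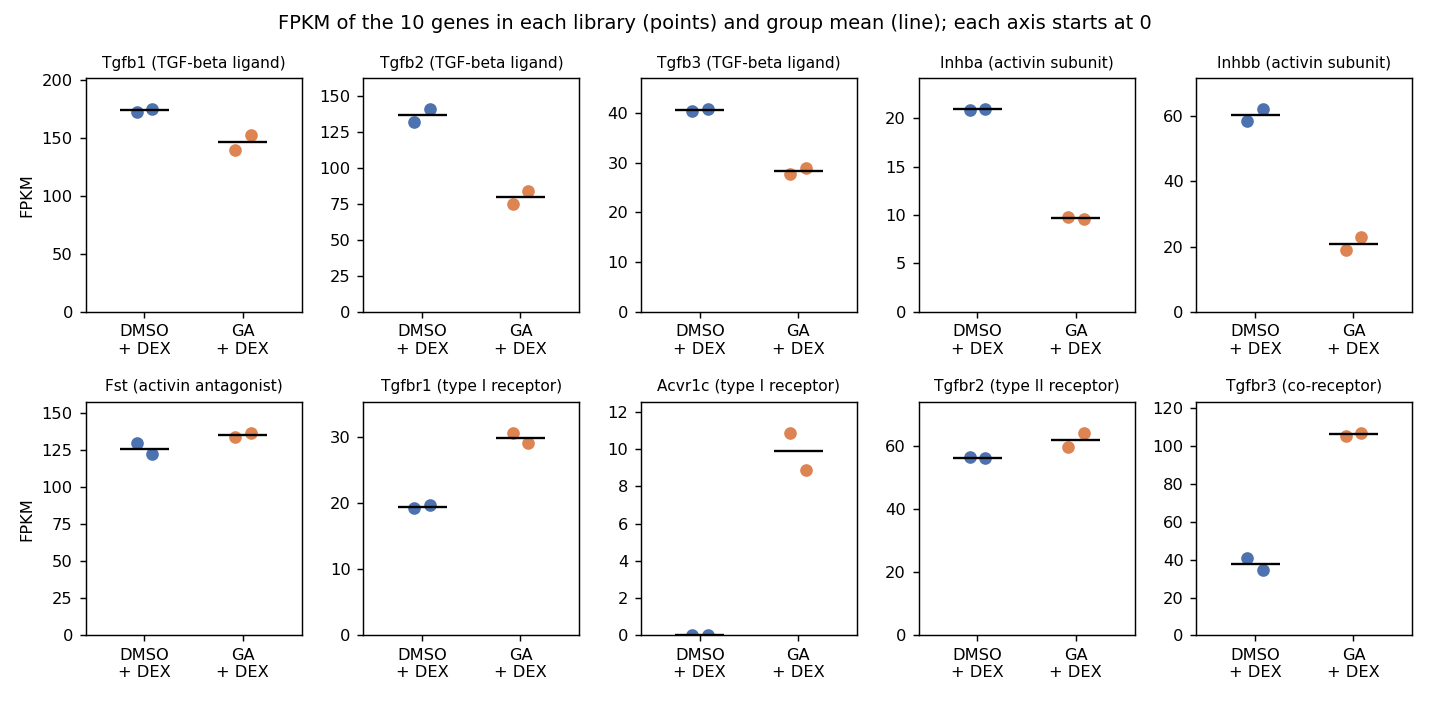
FPKM (vertical axes, each from 0) of the 10 genes in the 2 DMSO plus DEX and 2 GA plus DEX libraries (points), with group means as lines. The ligand and activin subunit genes sit lower in both GA libraries. Acvr1c is near 0 in DMSO plus DEX and at 8.87 and 10.9 in GA plus DEX.

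The unequal falls altered the mix of ligand transcripts. Tgfb1 made up 50.0% and 49.0% of the summed FPKM of the 3 ligands in DMSO plus DEX and 57.6% and 57.4% in GA plus DEX. Tgfb2 went the other way, from 38.3% and 39.5% to 31.0% and 31.6%. Tgfb3 held the smallest share, at 11.8% and 11.5% in DMSO plus DEX and 11.4% and 10.9% in GA plus DEX. The sum itself was 344 and 357 FPKM in DMSO plus DEX against 242 and 266 FPKM. A share within a library does not depend on how libraries are scaled, but it depends on the gene lengths behind FPKM. The shares were also taken with the longest transcript of any type, coding or not, as length. Tgfb1 then held 48.6% and 48.0% in DMSO plus DEX and 55.2% and 55.4% in GA plus DEX. Tgfb2 held 27.6% and 28.7% against 22.1% and 22.7%, and Tgfb3 23.8% and 23.3% against 22.8% and 21.9%. With 2 libraries a group the exact permutation test (two-sided) cannot go below p = 0.333, the value it gave for each share and for the sum.

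Both activin subunit genes fell, with fold changes further from 0 than those of the TGF-beta ligand genes, a difference that was not tested. Inhbb, which encodes the beta B subunit of activin B and inhibin B, was at 58.7 and 62.3 FPKM in DMSO plus DEX and at 18.8 and 22.9 FPKM in GA plus DEX. Each GA library held less than the lower DMSO library by far more than the gap between replicates. The mean fell 2.90-fold, with a log2 fold change of -1.50 (SE 0.09, adjusted p = 1.08e-05 with limma), and only 27 of the 12174 genes tested had a lower value. Inhba, the beta A subunit gene of activin A, was at 20.87 and 20.99 FPKM against 9.82 and 9.56 FPKM. Its replicates were nearly equal in each group, and the log2 fold change was -1.04 (SE 0.06, adjusted p = 7.42e-06).

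Inhbb exceeded Inhba in all 4 libraries, with ratios of FPKM of 2.81 and 2.97 in DMSO plus DEX and of 1.91 and 2.40 in GA plus DEX, a level that depends on the lengths used for both genes. The ratio was lower in both GA libraries, although they differed from each other by more than the DMSO libraries did. Inha, the alpha subunit gene that turns activin subunits into inhibin, was low, at 3.34 and 3.08 FPKM against 2.80 and 3.83 FPKM. These groups overlapped, and Inha was not called (adjusted p = 0.874). The remaining activin subunit genes Inhbc and Inhbe were listed at 0 in every library.

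Fst stayed abundant while the activin subunit genes fell. Follistatin, its product, binds activin and keeps it from its receptors. Fst was at 129.9 and 122 FPKM in DMSO plus DEX and at 134 and 137 FPKM in GA plus DEX. The groups lay next to each other without overlap, and the gap between them was smaller than that between the DMSO libraries. With a log2 fold change of 0.10 (SE 0.06, 95% interval -0.03 to 0.24), Fst did not pass the test (adjusted p = 0.155), and after the shift its value was -0.13. Per library, the ratio of Fst to Inhba was 6.23 and 5.82 in DMSO plus DEX and 13.6 and 14.3 in GA plus DEX. Against the sum of Inhba and Inhbb the ratio was 1.63 and 1.47 in DMSO plus DEX and 4.67 and 4.21 in GA plus DEX. Both ratios were higher in both GA libraries (exact permutation p = 0.333, the smallest possible). Their levels depend on the lengths used for the genes, which are not known for Fst and Inhba.

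**Figure D2:**
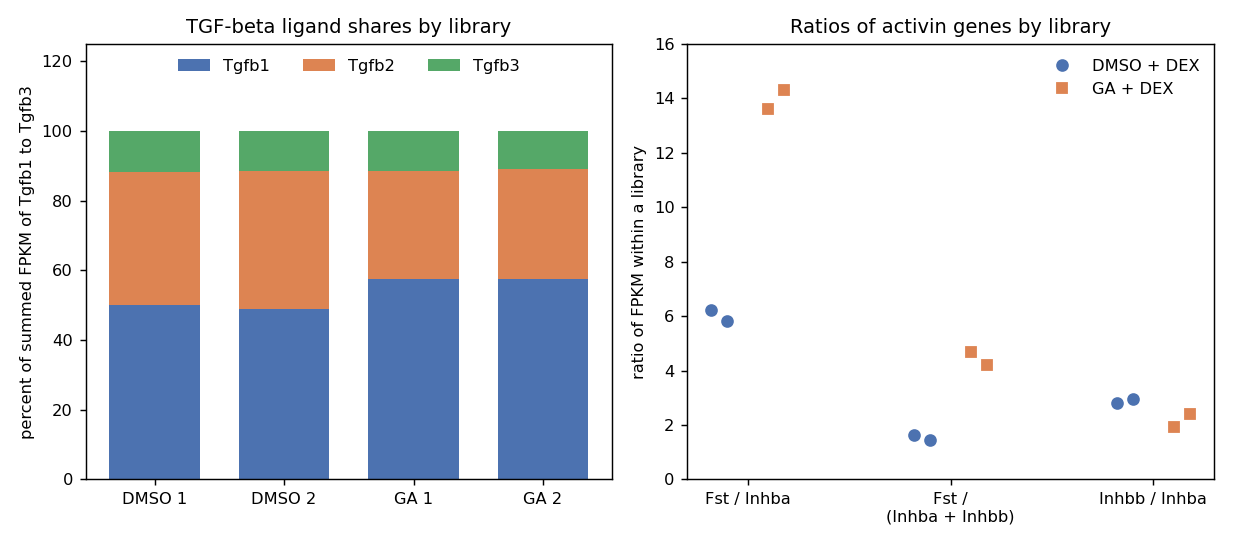
Left, percent of the summed FPKM of Tgfb1, Tgfb2 and Tgfb3 held by each gene in each of the 4 libraries (bars). Right, ratios of FPKM within each library (points), where Fst over Inhba is 6.23 and 5.82 in DMSO plus DEX and 13.6 and 14.3 in GA plus DEX.

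Receptor genes moved the opposite way from ligand genes or did not pass the test. Acvr1c encodes ALK7, a type I receptor for activin B, GDF3 and Nodal that is known from fat cells. It was at 0.00969 and 0 FPKM in DMSO plus DEX and at 10.9 and 8.87 FPKM in GA plus DEX. In reads recovered from the FPKM values, this was 1 and 0 reads against 779 and 725 reads. The reads per library size were 1850 times higher in GA plus DEX, with a 95% Clopper-Pearson interval of 331 to 73111 that covers counting error only. The gene entered the test only through its GA libraries and so had to differ. Its log2 fold change of 3.43 (SE 0.12, adjusted p = 5.36e-07 with limma) depends on the pseudocount of 1 and was 6.57 with 0.1 and 1.57 with 5. The 6 adipocyte markers rose in the same libraries, and the part of adipocyte number in the Acvr1c reads was not tested.

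Tgfbr1, which encodes the type I receptor ALK5 for TGF-beta, was at 19.2 and 19.7 FPKM in DMSO plus DEX and at 30.6 and 29.1 FPKM in GA plus DEX. The 2 groups were well separated. Its log2 fold change was 0.59 (SE 0.06, adjusted p = 0.000127), and 0.36 after the shift. Tgfbr2, the type II receptor that binds TGF-beta first, was at 56.6 and 56.2 FPKM against 59.9 and 64.4 FPKM. Both GA libraries were slightly above the DMSO libraries. The log2 fold change of 0.14 (SE 0.06) did not pass the test (adjusted p = 0.0758), turned to -0.10 after the shift, and passed as higher without the first GA library (0.19, adjusted p = 0.0326).

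Tgfbr3 had the second largest rise of the 10 genes. Betaglycan, its product, presents TGF-beta 2 to the type II receptor and also binds inhibin. Tgfbr3 was at 40.8 and 34.7 FPKM in DMSO plus DEX and at 105 and 107 FPKM in GA plus DEX. The GA libraries were close to each other and far above the DMSO libraries. The mean rose 2.81-fold, with a log2 fold change of 1.47 (SE 0.08, adjusted p = 5.62e-06), and 1.24 after the shift. Beside these rises, the macrophage list rose as deposited from a summed 3646 to 3894 FPKM to 4572 to 5305 FPKM. Of its 12 markers tested, 11 were called higher as deposited and 7 after the shift. The abundant Lyz2, C1qa, C1qb and C1qc were among those not called after the shift. The osteoclast list rose from 289 to 304 FPKM to 871 to 933 FPKM, and all 7 markers tested were called higher under both scalings. The part of these cells in the receptor values was not tested.

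In all, 3 of the 10 genes were called higher, where 46.3% of all genes tested were, and 5 of 10 were called lower, where 11.9% were. The same 3 and 5 genes were called after the shift, beside 19.5% and 27.9% of all genes. The 3 called higher were all receptor or co-receptor genes, and the 5 called lower were all ligand or ligand subunit genes. Of the 3 called higher, Acvr1c entered the test only through its GA libraries and so had to differ. The median log2 fold change of the 10 was -0.07, beside 0.19 for all genes tested.

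**Figure D3:**
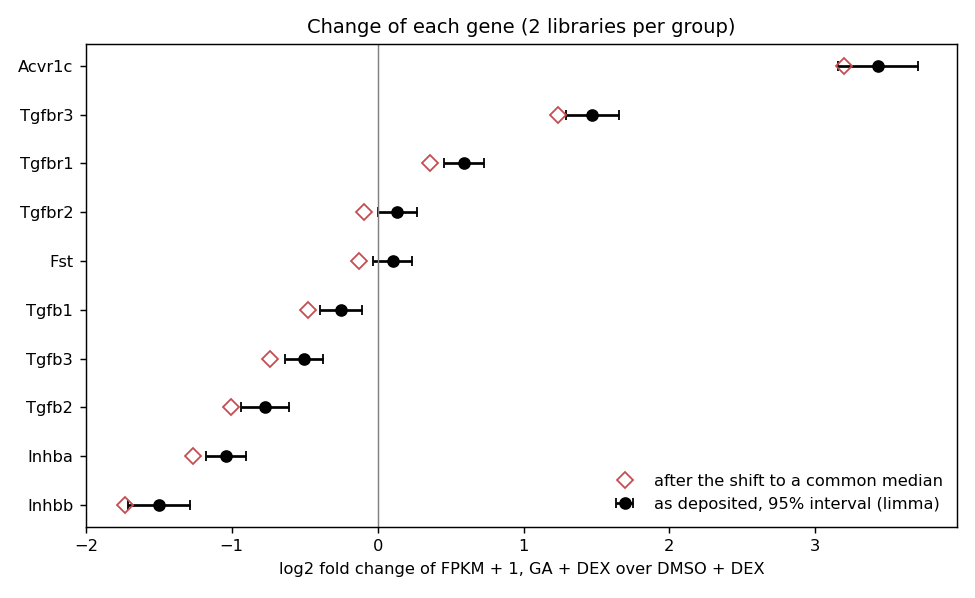
Log2 fold change of FPKM + 1 (horizontal axis), GA plus DEX over DMSO plus DEX, for each of the 10 genes as deposited (filled points with the 95% interval from limma) and shifted (open diamonds). Values run from -1.50 for Inhbb to 3.43 for Acvr1c, and Fst and Tgfbr2 are on opposite sides of 0 under the 2 scalings.

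On the FPKM scale, which divides by gene length, the mean levels in DMSO plus DEX followed the order Tgfb1, Tgfb2, Fst, Inhbb, Tgfbr2, Tgfb3, Tgfbr3, Inhba, Tgfbr1 and Acvr1c. Only the neighbours Tgfb3 and Tgfbr3 had overlapping libraries. In GA plus DEX the order was Tgfb1, Fst, Tgfbr3, Tgfb2, Tgfbr2, Tgfbr1, Tgfb3, Inhbb, Acvr1c and Inhba, with overlap only between Acvr1c and Inhba. Tgfbr3 thus moved from the seventh place with DMSO to the third with GA, while Inhbb went from the fourth place to the eighth. The length matters for such an order. Reads came out whole for Tgfb1, Tgfb2, Inhbb, Tgfbr1, Acvr1c and Tgfbr3 when length was the mean over the transcripts in GENCODE M21, and with the longest coding transcript instead Inhbb stood at a mean of 60.5 in DMSO plus DEX, above Tgfb2 at 48.7 and below Tgfb1 at 98.7.

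Genes with the profile most like that of the member with the largest rise and of the one with the largest fall were sought among genes tested with a mean of at least 5 FPKM, by the Euclidean distance of their centred log2(FPKM + 1) values over the 4 libraries. Nearest to Acvr1c were Aldh1a7 (distance 0.10), Fzd4 (0.11) and Rarres2, the chemerin gene (0.12). Aldh1a7 was at 0.296 and 0.301 FPKM in DMSO plus DEX and at 14.1 and 12.8 FPKM in GA plus DEX. These neighbours of Acvr1c were at 1.21 FPKM or less in DMSO plus DEX. They reached the mean of 5 FPKM only through the GA libraries and so had to differ. Nearest to Inhbb were the phosphoglycerate mutase gene Pgam2 (0.10), the T-box factor gene Tbx2 (0.11) and Cdsn (0.11). Pgam2 was at 24.4 and 26.5 FPKM in DMSO plus DEX and at 7.45 and 8.51 FPKM in GA plus DEX. Distances over 4 libraries mostly reflect the size of the group difference.

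Other genes of the pathway were read from lists by role, holding 80 genes, of which 79 were in the table and 64 were tested. As deposited, 17 of 64 were called higher and 27 lower, beside 46.3% and 11.9% of all genes tested. After the shift, 11 were called higher and 39 lower, beside 19.5% and 27.9%. These are the shares to set beside each list that follows. The median log2 fold change was -0.11 as deposited. The remaining ligand genes were few and low. Of 3 tested (Gdf11, Inha and Lefty1) 0 were called by limma (0 also at an unadjusted p under 0.05), and voom on recovered reads also called 0. After the shift, however, Lefty1 was called lower (-0.36, adjusted p = 0.0391), and with quantile normalization both Lefty1 (-0.37, adjusted p = 0.0396) and Gdf11 (-0.21, adjusted p = 0.0470) were. Gdf11, a relative of myostatin, was at 6.84 and 6.88 FPKM against 6.84 and 7.38 FPKM. Nodal and Mstn were listed at 0 in all libraries, and Gdf3, an ALK7 ligand, was at 0.252 and 0.213 FPKM in DMSO plus DEX and at 0.218 and 0.223 FPKM in GA plus DEX.

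Of 5 other receptor and co-receptor genes tested, 2 were called higher, 1 lower and 2 were not called, with the same 2 and 1 calls after the shift. Acvr2a, a type II receptor of activin, was at 2.84 and 2.86 FPKM in DMSO plus DEX and at 6.42 and 6.41 FPKM in GA plus DEX (log2 fold change 0.95, SE 0.08, adjusted p = 4.91e-05). Acvr1b, the type I receptor ALK4, was at 3.78 and 3.68 FPKM against 5.78 and 6.23 FPKM (log2 fold change 0.57, SE 0.08, adjusted p = 0.000753). Both genes were separated between the groups and were also called higher after the shift. Eng, which encodes the co-receptor endoglin, was at 25.3 and 27.6 FPKM against 19.5 and 19.4 FPKM and fell by 0.43 on the log2 scale (adjusted p = 0.000989). The type I receptor genes Acvr1 (0.12) and Acvrl1 (0.07) had log2 fold changes near 0 that did not pass the test and were below 0 after the shift, at -0.11 and -0.16.

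Latency and activation genes moved in both directions, with 4 of 12 called higher and 5 lower (3 and 8 after the shift, median -0.15 as deposited). Fbn1, the fibrillin gene whose fibres hold latent complexes, had a log2 fold change of 0.79, and Ltbp3, a latent TGF-beta binding protein gene, of 0.74. Nrros, which tethers latent TGF-beta on myeloid cells, rose by 0.63, and Lrrc32, which does so on regulatory T cells and platelets, by 0.43 as deposited, but Lrrc32 was not called after the shift. Thbs1, the gene of the activator thrombospondin, was at 3104 and 3122 FPKM in DMSO plus DEX and at 1498 and 1615 FPKM in GA plus DEX. Its log2 fold change was -1.001, and both GA libraries were far below the DMSO libraries. Ltbp2 fell by 0.93, Itgb5, an integrin subunit that can take part in activation, by 0.36, and the elastic fibre gene Emilin1 by 0.26. Ltbp1 (-0.14) and Itgav (-0.04), the most abundant that did not pass, were called lower after the shift.

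Antagonist genes other than Fst were mostly lower, with 5 of 6 called lower, and 6 of 6 after the shift. Fstl3, a relative of follistatin that also binds activin, was at 17.5 and 20.03 FPKM in DMSO plus DEX and at 10.3 and 10.4 FPKM in GA plus DEX (log2 fold change -0.80, SE 0.08, adjusted p = 0.000109). It thus fell where Fst did not pass the test. The difference between these 2 genes was not tested. Vasn, whose product vasorin binds TGF-beta, fell by 0.80, Bambi, a decoy receptor gene, by 0.75, and Wfikkn2, a binder of GDF8 and GDF11, by 0.55. Fkbp1a, whose product guards the type I receptor, was at 305 to 315 FPKM in DMSO plus DEX and at 315 to 319 FPKM in GA plus DEX and did not pass as deposited (log2 fold change 0.03), but was called lower after the shift (-0.20).

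SMAD genes and their regulators were called higher in 8 of 16 cases and lower in 4 as deposited, and in 5 and 5 after the shift. Of all genes tested, 46.3% were called higher and 11.9% lower as deposited, and 19.5% and 27.9% after the shift. The largest rises in the list were those of the ubiquitin ligase genes Nedd4l (0.78), Wwp1 (0.61) and Smurf1 (0.56) and of the deubiquitinase gene Usp15 (0.50). Smad3, an effector of TGF-beta and activin, was at 38.9 and 37.5 FPKM in DMSO plus DEX and at 28.5 and 29.8 FPKM in GA plus DEX. The groups did not overlap, and Smad3 fell by 0.38 on the log2 scale (SE 0.06, adjusted p = 0.00101). Smad2, the other effector, named after its values were seen, was at 24.4 and 25.4 FPKM against 32.0 and 28.8 FPKM. It was called higher as deposited (0.28, adjusted p = 0.00950) but not after the shift (0.04). Pmepa1, a target of TGF-beta that restrains the pathway, fell by 0.61, Smurf2 by 0.28 and the SMAD corepressor gene Skil by 0.23. Smurf2 was no longer called without the second DMSO library (adjusted p = 0.0756), nor Skil without the first (0.105) or second DMSO library (0.0524) or the first GA library (0.0764). Smad4 (0.05) and Ski (0.13) did not pass as deposited, and of these Smad4 was called lower after the shift, at -0.19.

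Among genes known as targets of TGF-beta, 12 of 22 were called lower and 3 higher (18 and 1 after the shift), with a median log2 fold change of -0.30 as deposited. Postn, the matrix gene of periostin, was at 2723 and 2751 FPKM in DMSO plus DEX and at 833 and 852 FPKM in GA plus DEX. Timp1, a metalloproteinase inhibitor gene, was at 265 and 295 FPKM against 97.5 and 93.3 FPKM. Both were widely separated between groups, with log2 fold changes of -1.70 and -1.54. Col1a1, the collagen gene that is also an osteoblast product, had -1.19, and Ccn2, the connective tissue growth factor gene, had -0.95. Tgfbi rose by 0.59, also after the shift (0.36). Snai2 (0.26) and Klf10 (0.24) were called higher only as deposited. Neither call held without the first GA library (adjusted p = 0.0568 and 0.106), nor that of Snai2 without the first DMSO library (0.172) or of Klf10 without the second (0.166). The contractile gene Acta2 (0.03) and the cartilage matrix gene Comp (0.13) did not pass as deposited. After the shift Acta2 was called lower (-0.21) and Comp was not called (-0.10). Many targets in this list are also osteoblast or matrix genes, and all 6 osteoblast markers tested fell in the same libraries. The part of that fall in the list was not tested.

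**Figure D4:**
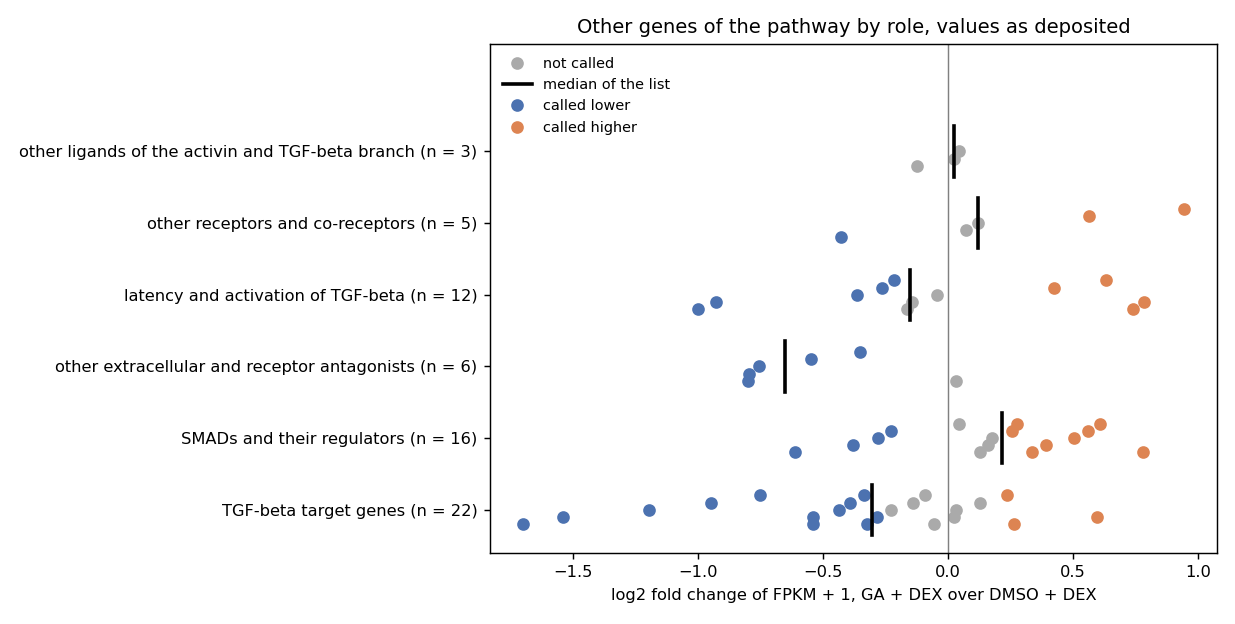
Log2 fold change of FPKM + 1 (horizontal axis), GA plus DEX over DMSO plus DEX as deposited, for the 64 other pathway genes tested, in 6 lists by role (rows), with the call of each gene as colour and the list median as a black line. The antagonist list has its median at -0.65 and the target list at -0.30, while the SMAD list is at 0.22.

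Reads of several of the 10 genes could be shared with neighbours, as the strand setting of the counting is not given in the sources used here. In GENCODE M21 the exons of Tgfb2, Tgfb3, Fst and Acvr1c overlap a transcript of the opposite strand over 115 to 257 bases, and those of Tgfbr3 overlap another transcript of the same strand over 297 bases. Where the overlapping gene was in the table, its mean was at most 0.131 FPKM. Tgfb1, Inhba, Inhbb, Tgfbr1 and Tgfbr2 have no such overlap.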

How the data were processed

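Total RNA of mBMSCs was enriched for poly(A) RNA and sequenced as 4 libraries, 2 with GA plus DEX and 2 with DMSO plus DEX. The authors deposited FPKM values per gene with 1 column per library, named as the sample titles. Per the submitters' processing notes the tools were TopHat2 2.0.12, Bowtie2 2.2.3 and HTSeq 0.6.1, and the build mm9, without a stated role. Which annotation, gene length and strand setting were applied is not given in the sources used here. Because 8425 identifiers are numbered above ENSMUSG00000100000, later than mm9 annotations, no gene coordinates were taken from the table. Symbols matched 46488 of 47069 identifiers.

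FPKM keep the depth: the most frequent smallest step, shared by 1740 to 1896 genes per library, was taken as 1 read, which gave 21559951 to 31069538 reads. For a gene of 1 kb, 1 FPKM was then worth 21.6 to 31.1 reads. With a length of the mean transcript in GENCODE M21, reads came out whole within 0.0001 for 73.8% of genes above 0. The others, among them Tgfb3, Inhba, Fst and Tgfbr2, came out whole with another length, which fixes their reads only up to a common factor. Recovered reads made up 99.4% of the depth in each library.

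The 12174 genes averaging 1 FPKM or more were tested with limma 3.58.1 in R 4.3.3 on log2(FPKM + 1) (lmFit, then eBayes with trend, 5.38 prior and 2 residual degrees of freedom, Benjamini-Hochberg). This scale compresses the change of genes with low FPKM, and folds are ratios of mean FPKM. The test was checked on simulated data. SE is from limma, with n = 2 libraries per group. The alternatives were pseudocounts of 0.1 and 5, no minimum or a minimum mean FPKM of 5, a shift to a common median, quantile normalization, eBayes without trend, a replicate block, each library left out in turn, and the thresholds of the paper (unadjusted p under 0.05, log2 fold change beyond 0.5). Limma's voom on recovered reads and ligand shares with another gene length were added after the data were seen.

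The 10 genes, the pathway lists and the markers were chosen with earlier results of these data known. Named in each pathway list were the 4 called genes that changed most in each direction, or fewer, and at most 2 abundant genes that were not called. Gdf3, Lefty1, Smad2, Nodal, Mstn, Inhbc and Inhbe were named besides, after their values were seen. Some genes of the lists are counted but not reported here by name. Promoter sequences came from RefSeq (GRCm38.p6), which had entries for 7 of the 10 genes. Acvr1c and Tgfbr1 had 2 entries each, and that nearest the outer start of the gene in GENCODE M21 was used. Figures were drawn with matplotlib 3.10.9.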

Additional observations from a re-analysis of the deposited data

How the results depend on the processing

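Among the 10 genes, 3 were called higher and 5 lower under pseudocounts of 0.1 and 5, no minimum FPKM, the shift, quantile normalization, eBayes without trend, the replicate block and voom on recovered reads. With a minimum mean FPKM of 5, Acvr1c was not tested and 2 were called higher. With the thresholds of the paper 4 were called lower, since Tgfb1 (-0.25) lies inside the fold limit. Leaving out 1 library gave 3 to 4 called higher and 4 to 5 lower, the changes being those of Tgfbr2 without the first GA library and Tgfb1 without the second DMSO library, given in the text. The ligand shares and the Fst to Inhba ratio kept their direction without any 1 library: the gain in the Tgfb1 share was 7.53 to 8.49 percentage points and that in the ratio 7.60 to 8.30. The longest transcript of any type, coding or not, was chosen as another length after the data were seen. With it the shares of Tgfb1, Tgfb2 and Tgfb3 moved by 7.01, -5.82 and -1.19 points.

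Over all genes tested, 5639 were called higher and 1454 lower as deposited, 2380 and 3392 after the shift, 2394 and 3273 with quantile normalization, 2932 and 3066 with voom, and 2051 and 552 with the thresholds of the paper. Of the other pathway genes, 17 were called higher and 27 lower as deposited, and 10 higher and 14 lower with the thresholds of the paper. After the shift 11 were called higher, and also 11 with quantile normalization. With no minimum FPKM, 16 of 74 were called higher and 21 lower. Of the named pathway genes, 5 lost their call with no minimum FPKM, 4 after the shift and 10 with the thresholds of the paper. The shift lowers every value by a constant, and 11 named genes near 0 turned negative.

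In the order shift, quantile normalization and voom, the log2 fold changes that turned were -0.13, -0.063 and -0.11 for Fst, -0.096, -0.073 and -0.071 for Tgfbr2, -0.19, -0.21 and -0.16 for Gdf11, -0.21, -0.25 and -0.17 for Inha, -0.11, -0.10 and -0.085 for Acvr1, -0.16, -0.14 and -0.14 for Acvrl1, -0.20, -0.15 and -0.18 for Fkbp1a, -0.19, -0.16 and -0.16 for Smad4, -0.11, -0.088 and -0.080 for Ski, -0.21, -0.15 and -0.18 for Acta2, and -0.10, -0.031 and -0.082 for Comp. Klf10 turned only with quantile normalization (-0.010). With 1 library left out, Gdf11 ran from -0.0038 to 0.093, Inha from -0.15 to 0.20 and Acta2 from -0.078 to 0.13, none of them called as deposited. Quantile normalization put Col1a1, the gene with the highest FPKM in each library, at 0 by construction.

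The replicate numbers are not said to pair libraries, and deviations of same-numbered libraries from their group means had a correlation of -0.03 over 12174 genes. With the replicate block 5528 genes were called higher and 1433 lower, and among the 10 genes 3 and 5. Depth limits mainly genes near the minimum, such as Inha and Acvr1c in DMSO plus DEX.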
